A study of Mus musculus with 6 samples.

Results

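The genes described here are 10 enzymes of the glutathione and thioredoxin systems and of the NRF2 response, measured in cultured airway smooth muscle with and without a beta2-adrenergic receptor transgene. They are Gsta4, Gsta3, Gstp1, Gsr, Gclm, Txnrd1, Prdx2, Prdx3, Nqo1 and Hmox1. Members were chosen by gene symbol: every probe that the platform annotation assigns to one of these symbols was taken. This gave 10 probes, 1 for each gene, among 8734 probes on the array, and all 10 genes entered the fit of 6807 rows. With 1 probe per gene, no second probe was there to set against any of these ratios.

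The study set RNA of cells cultured from tracheal explants of beta2-receptor-overexpressing (2AR-OE) mice against RNA of cells from nontransgenic (NTG) mice, 2 RNAs on each of 6 two-colour arrays. Both kinds of culture were started in medium with 20% serum and used between passages 8 and 10, and over 90% of such cells stained for smooth muscle actin, per the labels. The array titles carry the numbers 1 and 2 and the letters A to C, whose meaning is not stated; the 3 arrays of each number are called a set. Transgenic RNA carried Cy5 on the 4 arrays lettered A and B and Cy3 on the 2 swapped arrays 1C and 2C. The labels name neither the promoter of the transgene nor the strain and age of the mice. Separate cultures or animals are not recorded for the arrays, so the p-values measure only the spread between these hybridisations, which may be technical.

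Glutathione is the main small thiol of the cell. Glutathione transferases join it to reactive molecules such as the aldehydes that arise from oxidised lipids, and glutathione reductase returns its oxidised form to the reduced one. Thioredoxin, recharged by thioredoxin reductase, passes electrons to peroxiredoxins, which remove hydrogen peroxide. Many of these genes are targets of NRF2, a transcription factor that KEAP1 holds back until the cell meets oxidants or electrophiles, and that then binds antioxidant response elements beside its targets.

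Values are log2 ratios, likely of transgenic over nontransgenic RNA, and "higher" and "lower" refer to transgenic cells. This rests on the transgenic RNA being listed as the first channel, in Cy5, for 4 of 6 arrays and on its being the test condition. All 6 titles name the Cy3 sample first, whichever genotype it is, so the order in the titles does not settle the direction. If the ratio is the reverse, every sign below turns. For the 2 dye-swapped arrays the deposited sign was kept, on the assumption, not stated anywhere in the labels, that the authors had turned them. Estimates are from limma's linear model with a transgenic and a dye coefficient, given ± standard error over n = 6 arrays, and a gene is said to have risen or fallen at a Benjamini-Hochberg adjusted p under 0.05 over all 6807 rows. A ratio in a culture cannot tell fewer cells of a type from less RNA per cell.

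Antioxidant response elements hold the core letters TGACNNNGC. RefSeq promoter windows (build GRCm38.p6), from 250 bases before to 50 after a transcription start, were at hand for 7 of the 10 genes, in 9 windows, and not for Gsta4, Gsr and Hmox1. The core was found on either strand in 3 of these windows, against 12.4% of all 32851 windows in the table. The 3 windows are shown because they carry the core letters of the element that NRF2 is known to bind. One belongs to Txnrd1, a gene that fell, and the others to Gsta3 and Gclm. Each line gives the 250 bases before the start, with the match in capitals.

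Txnrd1 promoter, chr10:82858956-82859205, plus strand: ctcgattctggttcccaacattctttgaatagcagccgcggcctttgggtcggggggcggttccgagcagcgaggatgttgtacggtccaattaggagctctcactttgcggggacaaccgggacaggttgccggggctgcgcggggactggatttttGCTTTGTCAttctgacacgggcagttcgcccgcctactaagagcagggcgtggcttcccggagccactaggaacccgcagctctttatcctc
Gsta3 promoter, chr1:21240335-21240584, plus strand: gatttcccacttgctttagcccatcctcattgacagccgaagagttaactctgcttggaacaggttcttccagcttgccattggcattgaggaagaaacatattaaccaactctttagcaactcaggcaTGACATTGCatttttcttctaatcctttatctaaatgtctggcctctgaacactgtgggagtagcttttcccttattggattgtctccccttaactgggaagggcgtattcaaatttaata
Gclm promoter, chr3:122245307-122245556, plus strand: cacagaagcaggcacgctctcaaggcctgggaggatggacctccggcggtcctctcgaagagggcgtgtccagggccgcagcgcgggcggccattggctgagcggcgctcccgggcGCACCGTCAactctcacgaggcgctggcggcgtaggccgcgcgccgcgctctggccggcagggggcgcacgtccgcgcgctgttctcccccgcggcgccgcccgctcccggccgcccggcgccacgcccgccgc

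The match begins 92 bases before this start of Txnrd1, 121 bases before that of Gsta3 and 134 bases before that of Gclm. In Gsta3 it reads TGACATTGC, as the core is written, and in Txnrd1 and Gclm it lies on the other strand. The other 2 windows of Txnrd1 and those of Gstp1, Prdx2, Prdx3 and Nqo1 do not hold these letters. A match describes letters and is not evidence of binding.

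Of the 10 genes, 2 fell in transgenic cells, Gsta4 and Txnrd1, and 0 rose. Over all rows 7.11% passed the same threshold, 3.09% lower and 4.03% higher. The 10 ratios did not move as a block: 6 were negative and 4 positive, with a median of -0.09, beside a median of 0.0018 and 49.7% negative over all rows. At an unadjusted p under 0.05 the count was 6 of 10, 4 lower and 2 higher, beside 27.7% of all rows, 13.6% lower and 14.1% higher. Gsta4, Txnrd1 and Gsr were lower on 6 of 6 arrays, a pattern held by 8.51% of the 6756 rows with 6 values, and Gsta3 and Prdx3 were higher on 6 of 6, a pattern held by 11.2%.

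**Figure D1:**
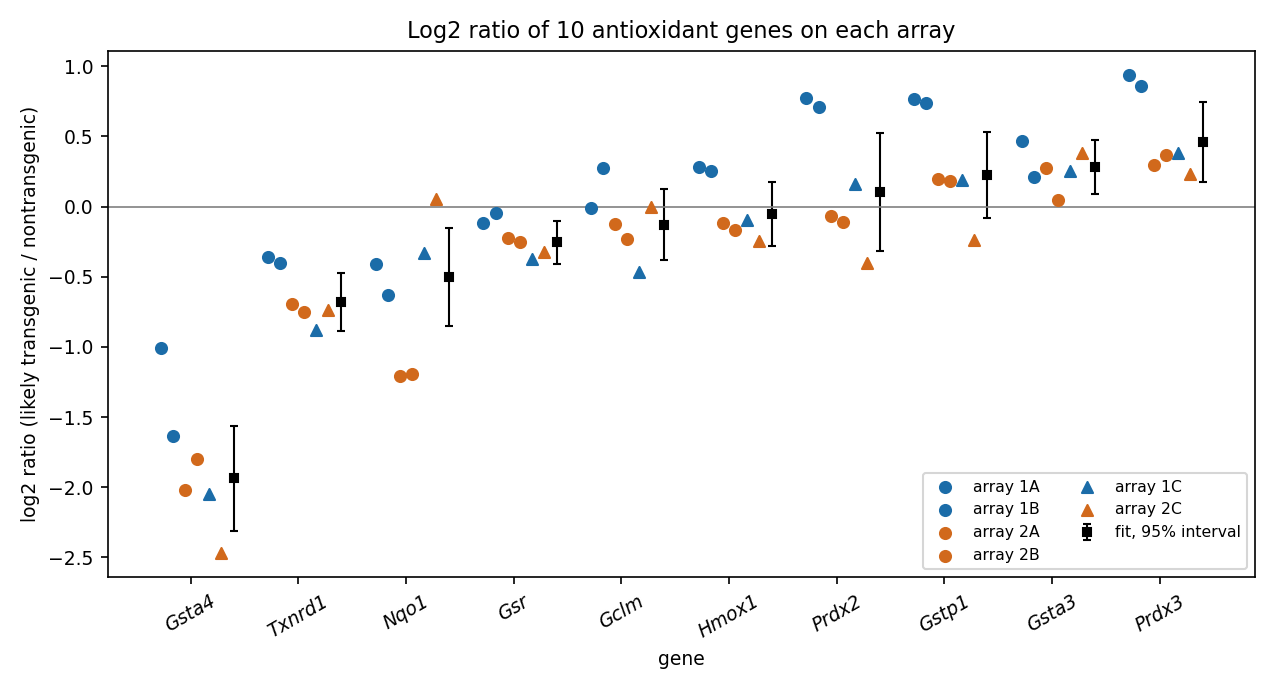
Log2 ratio (likely transgenic over nontransgenic) of the 10 genes on each array. Blue points are set 1 and orange points set 2; circles have transgenic RNA in Cy5 and triangles in Cy3; black squares are the fitted ratio with its 95% interval. Gsta4 lies between -2.47 and -1.01 on every array, below the values of the other 9 genes on the same array.

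Gsta4 encodes an alpha-class glutathione transferase known for conjugating 4-hydroxynonenal, an aldehyde of oxidised lipids. Its log2 ratio was -1.01 on array 1A, -1.63 on 1B and -2.05 on 1C in set 1, and -2.02 on 2A, -1.80 on 2B and -2.47 on 2C in set 2. Every array was on the same side of 0, and array 1A was the least negative. The fit gave -1.94 ± 0.15, a level 3.83-fold lower in transgenic cells (95% interval 2.96 to 4.96-fold, adjusted p = 0.0041). It was the 22nd lowest of 6807 rows.

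Gsta4 passed with each array left out. Fits within 1 set, on 3 arrays, were alternatives chosen after seeing the data. Such a fit holds 1 swapped array, so its p-value takes its spread from arrays A and B alone. Only ratios are therefore given for single sets. Set 1 alone gave -1.68 and set 2 alone gave -2.19. Leaving out 1C or 2C also left 1 swapped array. With 1 array left out the ratio ranged from -2.04 to -1.83 and the adjusted p from 0.0048 to 0.0225. With each set averaged to 1 value the ratio was the same, but n = 2 left the adjusted p at 0.14.

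Gsta3 and Gstp1, 2 other cytosolic glutathione transferases, had ratios on the other side of 0. Gsta3, of the same alpha class, was higher on all 6 arrays, from 0.05 on 2B through a median of 0.26 to 0.47 on 1A. The fit gave 0.28 ± 0.08 (95% interval 0.09 to 0.48, adjusted p = 0.088), which did not pass, and its interval and that of Gsta4 (-2.31 to -1.56) lay apart. Gstp1, the pi-class enzyme, was at 0.77 on 1A and 0.74 on 1B, at 0.20, 0.18 and 0.19 on 2A, 2B and 1C, and at -0.24 on 2C. Arrays 1A and 1B thus stood above the other 4. The fit gave 0.22 ± 0.13 (95% interval -0.08 to 0.53, adjusted p = 0.29), and 0.12 without array 1C. In set 1 alone Gstp1 was at 0.47 and in set 2 alone at -0.02.

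Genes of glutathione supply had small ratios, and neither passed. Gsr, glutathione reductase, was negative on every array, between -0.38 on 1C and -0.04 on 1B with a median of -0.24. Its fitted ratio was -0.26 ± 0.06 (1.19-fold lower, 95% interval 1.07 to 1.33-fold, adjusted p = 0.070). Gclm, the modifier subunit of the enzyme that makes the glutathione precursor, ran from -0.47 on 1C to 0.28 on 1B, both in set 1. Its fitted ratio was -0.13 ± 0.10 (95% interval -0.38 to 0.13, adjusted p = 0.45), so that the sign of the difference is not set by these arrays. It was at -0.01 without 1C and at -0.25 without 2C.

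Txnrd1, the cytosolic thioredoxin reductase, was the other gene that fell. Its log2 ratio was -0.36 on 1A and -0.40 on 1B, -0.88 on 1C, and -0.70, -0.75 and -0.74 on 2A, 2B and 2C. The 3 arrays of set 2 lay close together, while those of set 1 spread on both sides of them. The fit gave -0.68 ± 0.08, a level 1.60-fold lower (95% interval 1.39 to 1.85-fold, adjusted p = 0.011), the 161st lowest ratio of 6807. The call was lost without array 1C (-0.65, adjusted p = 0.054); with each other array left out the adjusted p was from 0.011 to 0.047. Within sets Txnrd1 was at -0.63 in set 1 alone and at -0.73 in set 2 alone.

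The peroxiredoxins, which thioredoxin recharges, had positive fitted ratios, and neither passed. Prdx3, the mitochondrial member, was higher on all 6 arrays, at 0.94 on 1A, 0.86 on 1B and 0.38 on 1C and at 0.30, 0.37 and 0.23 on 2A, 2B and 2C. Set 1 lay wholly above set 2. The fit gave 0.46 ± 0.12 (1.38-fold higher, 95% interval 1.13 to 1.68-fold), which did not pass over all 6 arrays (adjusted p = 0.073). Prdx3 was at 0.64 in set 1 alone and at 0.28 in set 2 alone. Prdx2, a cytosolic member, was at 0.78, 0.71 and 0.16 on 1A, 1B and 1C and at -0.07, -0.11 and -0.40 on 2A, 2B and 2C. Its sets thus had opposite signs, and the fitted ratio of 0.10 ± 0.17 (adjusted p = 0.72) averages over them.

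Nqo1 and Hmox1 are widely used readouts of NRF2 activity, and neither passed. Nqo1, a quinone reductase, was at -0.41 on 1A, -0.63 on 1B and -0.33 on 1C, at -1.21 on 2A and -1.19 on 2B, and at 0.05 on 2C. It was lower on 5 of 6 arrays, and the exception was a swapped array. The fit gave -0.50 ± 0.14 (1.41-fold lower, 95% interval 1.11 to 1.80-fold, adjusted p = 0.092). When fitted on the 4 Cy5 arrays alone, Nqo1 passed at -0.86 (adjusted p = 0.031), and the swapped arrays averaged -0.14. In that fit on Cy5 arrays 15.8% of all rows passed, beside 7.11% in the main fit. In set 2 alone Nqo1 was at -0.57, and in set 1 alone it was at -0.43. Hmox1, heme oxygenase 1, was between -0.25 on 2C and 0.28 on 1A, positive on 2 arrays and negative on 4. Its fitted ratio was -0.05 ± 0.09, and the 95% interval of -0.28 to 0.17 holds changes of up to 1.22-fold.

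The dye comparison asked which ratios moved when the dyes were exchanged. Of the 10 genes 0 passed limma's test for dye, beside 0.0147% of all rows, and 1 had an unadjusted p under 0.05, beside 18.2%. That gene was Nqo1, with a dye coefficient of -0.36 ± 0.14 (unadjusted p = 0.044, adjusted p = 0.27), which is 0.72 of the size of its transgenic coefficient. In set 2, Nqo1 averaged 1.25 lower on the Cy5 arrays than on the swapped one, where the swapped arm is the single array 2C, assumed to vary like the others; fitted on set 2 alone, the dye coefficient was -0.63 (adjusted p = 0.037, beside 4.47% of rows past the threshold). Gsta4 had a dye coefficient of 0.32 ± 0.15 (adjusted p = 0.31) and Txnrd1 one of 0.13 ± 0.08 (adjusted p = 0.43). These dye coefficients are also what the transgenic coefficients would be if the swapped columns had been deposited unturned: in that case 0 of the 10 genes pass for the transgene, and the falls of Gsta4 and Txnrd1 are dye differences.

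**Figure D2:**
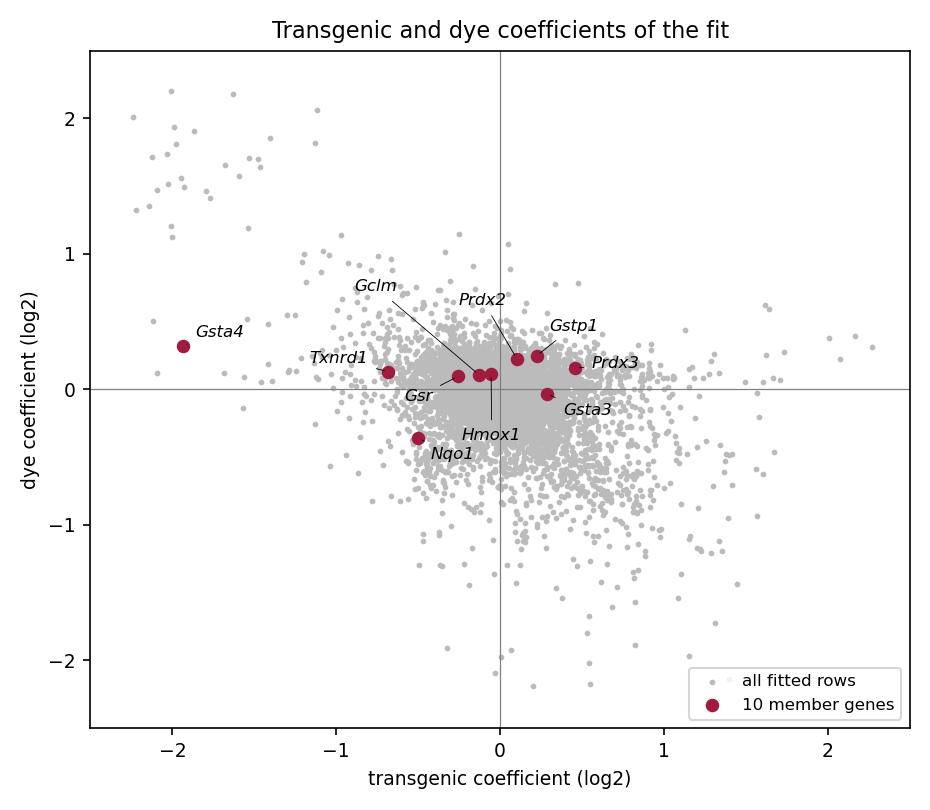
Dye coefficient (y, log2) against transgenic coefficient (x, log2) for every fitted row (grey) and the 10 genes (red); 9 rows lie beyond the axes at 2.5. Gsta4, at -1.94 on x and 0.32 on y, stands at the left edge of the cloud near the horizontal axis, while Nqo1 has coefficients of -0.50 and -0.36.

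The set comparison asked whether the ratio differed between sets 1 and 2. The difference of set 2 minus set 1 was negative for all 10 genes, beside 57.0% of all rows. The sign of Gsta3 turned without 1A, without 2B and under both scaling alternatives (0.0065 to 0.025), and that of Gclm turned without 1B (0.10) and without 2B (0.053). By limma 0 of 10 passed, beside 0% of all rows, and 5 had an unadjusted p under 0.05, beside 23.7% of all rows. Those 5 were Prdx2 (-0.74 ± 0.10, adjusted p = 0.072), Gsta4 (-0.53 ± 0.20, adjusted p = 0.20), Gstp1 (-0.52 ± 0.08, adjusted p = 0.072), Prdx3 (-0.43 ± 0.12, adjusted p = 0.13) and Hmox1 (-0.32 ± 0.10, adjusted p = 0.14). For Gsta4 this is a lower ratio further from 0 in set 2, and for Prdx3 a higher ratio nearer to 0. The difference of Gsta4 grew to -1.26 with arrays scaled to equal median absolute deviation (adjusted p = 0.072) and to -1.43 after quantile normalization (adjusted p = 0.10). In Prdx2, Prdx3 and Hmox1 set 1 lay wholly above set 2, which 13.8% of rows with 6 values did; 0 of 10 genes and 11.4% of rows had the reverse. With array weights Prdx2, Gstp1 and Prdx3 passed (-0.80, -0.55 and -0.53, adjusted p of 0.040, 0.040 and 0.045), 3 of 10 beside 7.61% of all rows in that fit. Treating the set as a block bore on the transgenic calls. As a random replicate block it left Gsta4 (adjusted p = 0.013) and Txnrd1 (0.037). As a fixed replicate block, added after seeing the data, it left both. It also added Prdx3 (0.46, adjusted p = 0.018), Gsr (-0.26, adjusted p = 0.033) and Gstp1 (0.22, adjusted p = 0.034). In that fit 17.2% of all rows passed, beside 7.11% in the main fit. A fixed term takes the difference between sets out of the spread, so its p-values measure spread within sets only. Gstp1 was called there although it was at 0.47 in set 1 alone and at -0.02 in set 2 alone.

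A dye bias that is constant for a probe cancels in the difference between sets within 1 orientation. That difference had the same sign in both orientations for 5 of 10 genes, Gsta4, Gstp1, Prdx2, Prdx3 and Hmox1, beside 59.6% of 6756 rows. For Gsta4 it was -0.59 on the Cy5 arrays and -0.42 on the swapped ones, and for Prdx2 -0.83 and -0.57. The swapped difference is the single array 2C minus the single array 1C. Array 1C was the widest, with an SD of 1.04 beside 0.47 to 0.61 on the others. Nqo1 (-0.68 and 0.38), Gclm (-0.31 and 0.46), Txnrd1 (-0.35 and 0.14), Gsta3 (-0.18 and 0.12) and Gsr (-0.16 and 0.05) had opposite signs.

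**Figure D3:**
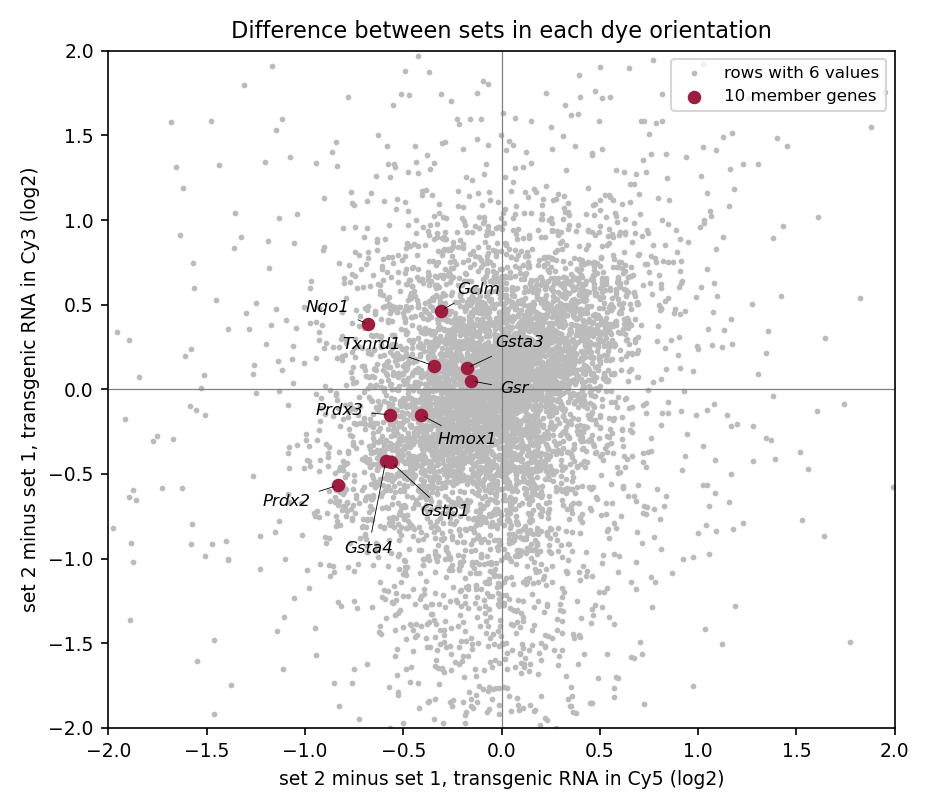
Difference in log2 ratio of set 2 minus set 1 for transgenic RNA in Cy5 (x) and in Cy3 (y), for rows with 6 values (grey, 299 of 6756 beyond the axes at 2) and the 10 genes (red). All 10 genes lie left of 0 on x, and 5 of them, led by Prdx2 at -0.83 and -0.57, also lie below 0 on y.

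Other genes of these pathways were taken from a list of 122 genes in 8 functional groups, of which 32 had a probe and 31 entered the fit. In all, 2 rose and 1 fell, or 9.68%, beside 7.11% of all rows, and the median was -0.04. Mgst3, a microsomal glutathione transferase, rose by 0.99 ± 0.16 (adjusted p = 0.021), with 1.62, 1.30 and 1.05 on 1A, 1B and 1C and 0.57, 0.83 and 0.77 on 2A, 2B and 2C. Of the measured glutathione transferases, then, Gsta4 fell and Mgst3 rose. With array weights Mgst3 did not pass (limma adjusted p = 0.115). Mgst3 lost the call without 1B (adjusted p = 0.064), without 2B (0.059) and without 1C (0.10). Aldh1a7, an aldehyde dehydrogenase of the lipid aldehyde clearance group, rose by 1.58 ± 0.27 (adjusted p = 0.025), on 6 of 6 arrays from 0.38 on 1B to 2.46 on 1A. Aldh1a7 did not pass with array weights (limma adjusted p = 0.062) or on the 4 Cy5 arrays alone (0.051). Its call was lost without 2A (adjusted p = 0.078), without 2B (0.079), without 1C (0.11) and with a random replicate block for the set (0.11).

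Txn2, the mitochondrial thioredoxin, fell by 0.32 ± 0.07 (adjusted p = 0.042), but not on every array. It was at 0.03 on 1A, 0.0043 on 1B, -0.13 on 2A and -0.17 on 2B, and at -0.51 on 1C and -0.64 on 2C. The swapped arrays were the low ones, and on the 4 Cy5 arrays alone Txn2 was at -0.07 (adjusted p = 0.53). Its call was lost with each array left out in turn, at adjusted p from 0.051 to 0.13, with the set as a random block, at 0.10, without the dye coefficient, at 0.24, with array weights, at 0.11, and under both scaling alternatives, at 0.061 and 0.073. With the set as a fixed block it kept the call (adjusted p = 0.014).

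NRF2 itself and its regulators showed no call. Nfe2l2, the gene of NRF2, was at 0.10 ± 0.11 (adjusted p = 0.58), and Keap1, its repressor, at 0.08 ± 0.08 (adjusted p = 0.50). Cul3, the scaffold of the ligase that degrades NRF2, had the largest ratio of this group of 5 and was negative on 6 of 6 arrays, at -0.14 ± 0.07 (adjusted p = 0.23). Among 7 other NRF2 targets 0 passed. Tkt, transketolase, averaged 0.84 ± 0.31 (adjusted p = 0.15) over 2 probes; one was at 4.43 on 1C, and the other, tested alone, gave 0.43 ± 0.08 (adjusted p = 0.039) and was positive on 6 of 6 arrays. Blvra, which reduces the biliverdin that heme oxygenase makes, was at 0.22 ± 0.06 (adjusted p = 0.082) and positive on 6 of 6 arrays. Ugdh had the largest ratio, -1.77 ± 0.96, but its value on array 1C was at the floor of the table, and without floor values Ugdh stood at -0.04 (adjusted p = 0.97).

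In the remaining groups the gene with the largest ratio did not pass. Gstt2 was at -1.55 ± 0.63 (adjusted p = 0.18) with array 1C at the floor, and at -0.34 (adjusted p = 0.44) with floor values missing. Gss, glutathione synthetase, was at -0.15 ± 0.10 (adjusted p = 0.35), and Gpx7, the only gene measured among glutathione peroxidases and glutaredoxins, at 0.47 ± 0.20 (adjusted p = 0.20). Xdh, xanthine dehydrogenase, led the 6 superoxide, catalase, metallothionein and oxidase genes at 0.31 ± 0.10 (adjusted p = 0.12). Txnip, which binds and inhibits thioredoxin, averaged -0.12 ± 0.56 over 2 probes. One of its probes had values on 3 arrays, with the floor on 1A, and the other, tested alone, gave 0.50 ± 0.09 (adjusted p = 0.028).

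**Figure D4:**
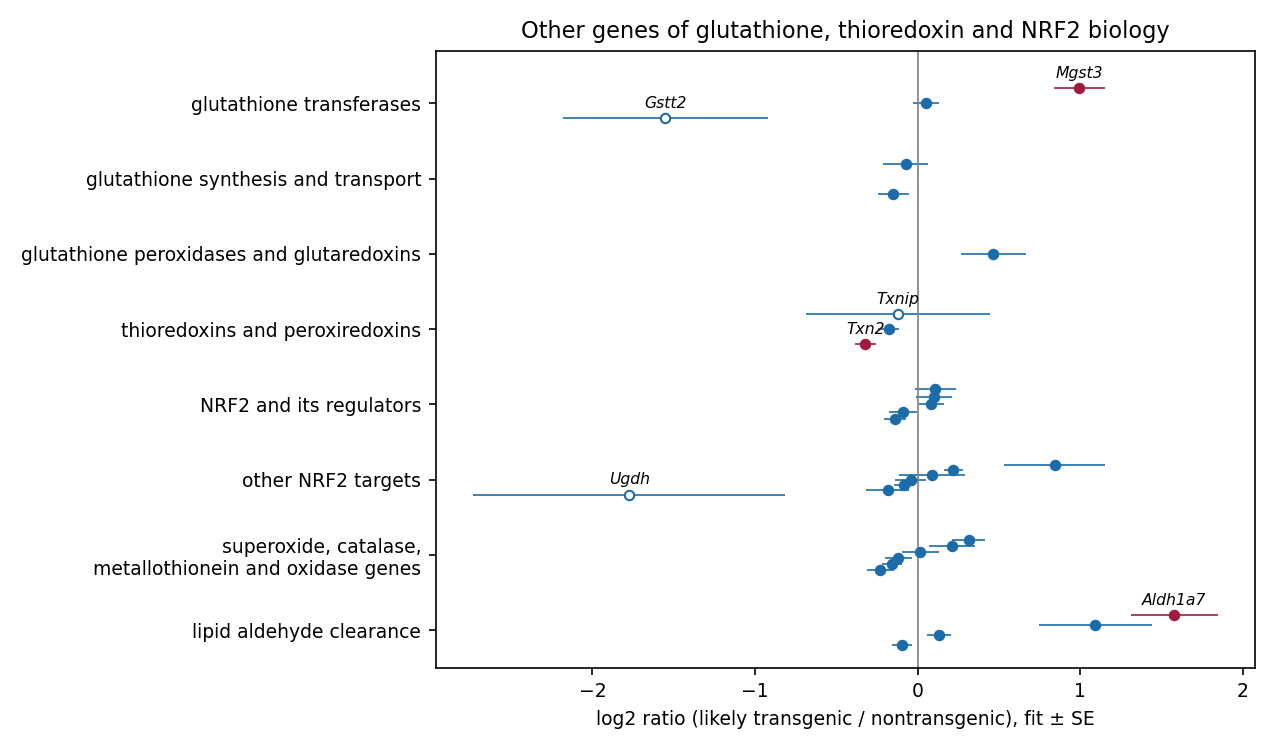
Fitted log2 ratio (likely transgenic over nontransgenic) with its standard error for the 31 fitted genes of the wider list, by functional group. Red genes passed the threshold and open circles rest on a value at the floor of the table. Mgst3 at 0.99 and Aldh1a7 at 1.58 lie to the right, Txn2 at -0.32 to the left, and the 5 genes of NRF2 and its regulators lie between -0.14 and 0.11.

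Ratios most like those of the 2 genes that fell were found by the root mean square difference over the 6 arrays, among 5613 other genes with 6 values. For Gsta4 they were LTO1 (0.28), Gzmf, a granzyme (0.34), and Tm4sf1, a membrane protein (0.49). LTO1 was between -1.99 on 2C and -1.48 on 1B on 5 arrays, and, like Gsta4, was least negative on 1A. For Txnrd1 they were Rasa1, a GTPase-activating protein for Ras (0.09), Mast2, a kinase (0.09), and Gpc4, a glypican (0.10). Rasa1 was at -0.34 on 1A and -0.26 on 1B and between -0.62 and -0.80 on the other 4 arrays.

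Between 8495 and 8555 probes had a value on each array, and array 1C was the widest, with an SD of 1.04 beside 0.47 to 0.61 on the others and 63 probes at the floor beside 0 to 10. None of the 60 values of the 10 genes was at the floor. Over all probes, arrays of the same orientation correlated with r from 0.31 to 0.70 and arrays of opposite orientation with r from 0.0089 to 0.18, a description across probes, which are not independent replicates. Two-colour ratios give no level, so the labelled cell type could not be checked against its markers. Among markers of smooth muscle, Cnn1 rose (0.59 ± 0.10) and Smtn was at -0.05 ± 0.08. Of 6 fibroblast markers, Thy1 rose by 2.73 ± 0.21 (limma adjusted p = 0.0041), between 2.21 on 2C and 3.44 on 1C. Mfap5 rose by 0.81 ± 0.07 (limma adjusted p = 0.0045). Lum (0.70), Dpt (1.67), Pdgfra (-0.02) and Col1a1 (-1.21, with -3.28 on 1C) did not pass (adjusted p from 0.062 to 0.93). The median of the 6 was 0.76, with array medians from 0.15 to 1.16. Of 4 epithelial markers Cdh1 rose (median 0.13, array medians from -0.33 to 0.59). Of 4 cartilage markers Col11a1 fell (median -0.27, array medians from -0.52 to -0.07). Of 4 macrophage and leukocyte markers and 2 endothelial markers 0 passed limma's test, and 1 in each group had an unadjusted p under 0.05. The part of these marker differences in the ratios of Gsta4 and Txnrd1 was not tested.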

How the data were processed

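The data are 6 two-colour arrays of cultured murine airway smooth muscle cells. Per the labels' protocols, total RNA was reverse transcribed, labelled with Cy3 or Cy5 and hybridised competitively to printed slides. The authors deposited 1 log2 ratio per probe and array; scanner, background correction, normalization and filters are not stated in these sources. Array medians were 5e-05, 0, 0.0007, 0.0005, -0.0013 and 0.0001 (1A, 1B, 2A, 2B, 1C, 2C), so the deposited log2 values were already centred; the step and the direction of the ratio stay unknown. The lowest value is the log2 of a ratio of 0.01 and was treated as a floor. Spot signals were not used here, so the precision stated rests on the spread of ratios between arrays, and weak spots could not be told from strong ones.

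The platform annotation gives 1 symbol for 7540 of 8734 probes, several for 14 and none for 1180; 7493 matched a GRCm38.p6 gene by Entrez ID, with 0 symbols updated. Probes of 1 symbol were averaged per array. Rows with at least 4 arrays and both orientations were fitted with limma 3.58.1 (R 4.3.3), transgenic and dye coefficients, lmFit and eBayes; a further term gave the set difference. The fit was tested on simulated data with independent noise, equal in spread on all arrays, and no set effect. That test bears on the code and not on the calls made here. Intervals are 95%. Alternatives left out each array or the swapped arrays, changed scaling, probe averaging, filter, floor, weights, variance moderation and the sign of the swapped columns, or took the set as a block or as means. No replicate number in the labels pairs arrays.

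The 10 genes and the lists were chosen with earlier results of these data known. Named genes are the members, every gene of the wider list past the threshold, the largest ratio of each group, and the 3 nearest rows to each member past the threshold; Nfe2l2, Keap1, Blvra, Tkt, Txnip and the marker genes were added after their values were seen. Figures used Python 3.11.15 and matplotlib 3.10.9.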

Additional observations from a re-analysis of the deposited data

Results flagged for a closer look

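Prdx2 had positive ratios on all 3 arrays of set 1 and negative ratios on all 3 arrays of set 2, and the difference of set 2 minus set 1 was -0.74 (limma adjusted p = 0.072). Gstt2 was positive on all 4 arrays with transgenic RNA in Cy5 and negative on both swapped arrays, with a dye coefficient of 2.67; with floor values missing it was 1.45 (adjusted p = 0.17). Ugdh was negative on all 3 arrays of set 1 and positive on all 3 of set 2, with a difference of 3.54; with floor values missing it was 1.85 (adjusted p = 0.28). By Dixon's test 0 of 25 genes had a single array that stood apart, over all 6 arrays or over the 4 with transgenic RNA in Cy5. The 25 were the members, the wider-list genes past the threshold or largest in their group, and the nearest rows. Genes added after their values were seen were not examined. Among these, Tkt was at 2.60 on 1C and 0.16 to 0.37 on the other arrays. Dpt was at -1.02 on 1B and 1.83 to 2.27 on the others. The 2 swapped arrays are too few for that test on their own.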

How the results depend on the processing

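The fall of Gsta4 kept its direction under 21 of 22 alternatives and its call under 20, and that of Txnrd1 under 21 and 19. Not all of these could turn a direction. With 1 probe per gene and no value missing or at the floor, probe handling, filter and floor cannot change a member's ratio. Robust variance, the set blocks and set means also leave the ratio itself unchanged. Both calls ended with set means (n = 2; 0 rows, 0 of the 10 genes and 0 of the wider list) and with the sign of the swapped columns changed. The latter gave 1 row, 0 members and 0 genes of the wider list for the transgene and 2 members for dye, and turned Gsta4 (0.32), Txnrd1 (0.13), Gsr (0.10), Gclm (0.11), Hmox1 (0.12) and Gsta3 (-0.035). With 1 array left out, the 484 rows called for the transgene ranged from 169 to 1689, the members called from 1 (without 1C) to 2, and the wider list from 0 (without 2B) to 6 (without 2C). The largest count, 1689, came without 2C, and Prdx2 ranged from -0.039 (without 1C) to 0.24. When the set entered as a random replicate block, at a correlation of 0.295, 197 rows and 1 gene of the wider list passed, and both members kept their call. As a fixed replicate block, an alternative added after seeing the data, the set left 1168 rows, 5 genes of the wider list and 5 members, with Prdx3, Gsr and Gstp1 added to Gsta4 and Txnrd1. Array weights gave 159 rows, 0 genes of the wider list, 3 members called for the set, and Prdx2 at -0.019. The 4 arrays with transgenic RNA in Cy5 gave 1071 rows, 4 members (with Prdx3 and Nqo1), 6 genes of the wider list and Hmox1 at 0.062. Set 1 alone, also added later, gave 1057 rows, 4 members (with Prdx3 and Gstp1) and Hmox1 at 0.086; set 2 alone gave 907 rows, 5 genes of the wider list, 3 members (with Nqo1), 1 member for dye (Nqo1), Gstp1 at -0.024 and Prdx2 at -0.25. Prdx3 also passed after quantile normalization (0.50, adjusted p = 0.035). Each probe as its own row called 2 members. Set means and the sign change test fewer samples or another contrast; the cause of the other shifts was not tested. The floor, scaling, dye coefficient, probe median, filter and robust variance left the members' other calls and directions for the transgene as they were.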
